A study of Mus musculus with 10 samples.

Results

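Messenger RNA was counted in wells of 384-well plates that held cells of the crypts of the mouse small intestine, and 8 genes of sugar and peptide digestion and uptake are described here: Sis, Lct, Treh, Anpep, Ace, Alpi, Slc5a1 and Khk. The members were the table rows whose symbol is one of these names, 1 row for each, and all 8 were found among 18022 genes listed over the 10 plates. The picked group (3 libraries, 1 plate each) held doublets or triplets taken by mouth pipette after a mild dissociation, so a picked well is a small group of cells and not 1 cell. The sorted group (7 libraries) held single cells, and its titles carry the code GK5b for libraries 6 and 7 and GK5a for libraries 1 to 5. The strain of every library was C57Bl/6, and age, treatment and genotype are not in the labels. The endings of the codes are not explained in the labels, and neither the animal nor the segment of the intestine is given for any plate. Since no label says which libraries came from separate animals, the p-values set differences against library-to-library spread alone, and that spread may be technical.

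The epithelium of the small intestine renews itself from dividing cells in the crypts, and absorptive enterocytes mature as they leave the crypt and move up the villus. Enterocytes carry a brush border of microvilli whose membrane holds the enzymes that finish digestion beside the transporters that take up the products. Disaccharidases split sugars, peptidases trim peptides, and the sodium-glucose cotransporter takes up glucose and galactose, while fructose is taken up by another route and phosphorylated inside the cell. These genes are known as marks of mature enterocytes, which are a minority in a crypt preparation.

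A well was used with at least 1000 transcripts of endogenous genes, which left 501 picked and 1615 sorted wells, with 821829 to 4832580 transcripts per library. A well was called absorptive where Apoa1 and Apoa4, apolipoproteins that enterocytes package into lipid particles, made up at least 0.5% of its transcripts. None of the 8 genes is in that rule. It held 19 picked wells (1, 5 and 13 in libraries 1, 2 and 3) and 80 sorted wells, of which 1 was on the GK5b plates (0 and 1 in libraries 6 and 7) and 79 were on the GK5a plates (16, 22, 8, 19 and 14 in libraries 1 to 5). The class stands on a continuous share, and 31 sorted wells had a share within a factor of 2 of the cut-off. Doublets among the sorted cells were not looked for. Xist, the RNA of the inactive X chromosome, was at 115 to 155 CPM in picked and 0 to 0.978 CPM in sorted libraries, and the Y-linked Ddx3y was at 0 in picked and 60.7 to 100 CPM in sorted libraries, so sex, code and group cannot be told apart between picked and sorted libraries. Levels are given as CPM, a gene's share of all transcripts of the wells summed, on a scale where 10000 CPM is 1%. The assay reads the 3' end of each molecule once, so levels of different genes are set side by side per molecule, without a length term.

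The members are spread over 6 chromosomes of GRCm38 (mm10), with Lct and Alpi both on chromosome 1 and Slc5a1 and Khk both on chromosome 5. Sis spans chr3:72888557-72967863 on the minus strand with 48 exons in the transcript that GENCODE marks as principal, Lct chr1:128284756-128328318 on the minus strand with 17, Treh chr9:44673233-44686305 on the plus strand with 15, and Anpep chr7:79821803-79861059 on the minus strand with 21. Ace spans chr11:105967945-105989964 on the plus strand with 25 exons, Alpi chr1:87098002-87101606 on the minus strand with 11, Slc5a1 chr5:33104219-33162870 on the plus strand with 15, and Khk chr5:30921431-30931248 on the plus strand with 8. Alpi has close relatives in the same cluster, and reads shared with them could be split between them by the counting, so its level is uncertain to that extent. Treh overlaps Phldb1 on the opposite strand by 2 bases, and whether the counting used strand is not stated in the labels. Ace overlaps Gm11651 on the opposite strand by 17750 bases, and Anpep overlaps Gm44974 on the same strand by 1279 bases. Slc5a1 overlaps the pseudogenes Gm15936 on the same strand by 460 bases and 5033423K11Rik on the opposite strand by 1474 bases. Of these overlapping genes, only Phldb1 is among the genes listed over the plates.

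The promoters of Sis, Lct and Alpi are printed because Sis was the most abundant of the 8 genes in absorptive wells, Lct differed most between the sorted plates, and Alpi had the smallest p-value between picked and sorted libraries. Each is the 250 bases before the RefSeq start in GRCm38.p6, on the minus strand: chr3:72967864-72968113 for Sis, chr1:128328319-128328568 for Lct and chr1:87101607-87101856 for Alpi. Capitals mark matches on either strand. The motif searched for Cdx2 was CNATAAA. That for Hnf1 was GTTAAT, and for Hnf4 it was CAAAGT. The motif searched for the Gata family was AGATAA. The core promoter element TATAAA was searched as well.
Sis: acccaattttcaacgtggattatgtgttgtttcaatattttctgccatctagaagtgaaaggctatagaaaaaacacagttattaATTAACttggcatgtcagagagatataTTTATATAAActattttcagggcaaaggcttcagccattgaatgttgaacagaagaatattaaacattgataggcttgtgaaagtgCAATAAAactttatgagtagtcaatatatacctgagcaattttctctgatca
Lct: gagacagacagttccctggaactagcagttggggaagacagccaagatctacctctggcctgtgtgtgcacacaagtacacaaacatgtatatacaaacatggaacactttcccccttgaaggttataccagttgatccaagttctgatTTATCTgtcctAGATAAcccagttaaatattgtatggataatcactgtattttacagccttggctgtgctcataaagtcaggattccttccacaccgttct
Alpi: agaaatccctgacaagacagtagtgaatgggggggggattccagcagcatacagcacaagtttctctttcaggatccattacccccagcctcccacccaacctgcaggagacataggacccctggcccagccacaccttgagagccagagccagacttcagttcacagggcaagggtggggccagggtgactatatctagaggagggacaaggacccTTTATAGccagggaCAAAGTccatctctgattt
Cdx2, Hnf1 and Gata factors are known regulators of Sis and Lct. The Sis window held a CNATAAA match at 52 to 46 bases before the start, a GTTAAT match at 165 to 160 bases and a pair of TATAAA matches between 138 and 129 bases that overlap each other. The Lct window held AGATAA at 101 to 96 and at 90 to 85 bases before the start. The Alpi window held a TATAAA match at 33 to 28 bases, which lies inside a CNATAAA match at 33 to 27 bases, and CAAAGT at 19 to 14 bases. Over the 32851 promoter windows of the RefSeq table, which also take in the first bases of the transcript, 10.9% held CNATAAA, 7.10% GTTAAT, 14.4% CAAAGT, 11.2% AGATAA and 13.6% TATAAA. Of the 8 members, all with a window in the table, 2 held CNATAAA (Sis and Alpi), 2 held GTTAAT (Sis and Khk), 3 held CAAAGT (Treh, Ace and Alpi), 1 held AGATAA (Lct) and 3 held TATAAA (Sis, Ace and Alpi). A match is a stretch of letters and not a shown binding site.

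Absorptive wells were set against the other wells of the same plate in the 4 sorted libraries with at least 10 absorptive wells, libraries 1, 2, 4 and 5. All 8 genes were higher in absorptive than in other wells in all 4 libraries, from Khk to Ace by 2.60 to 6.24 on the log2 scale. Beside this, 47.5% of the 7400 genes tested were called, 18.9% as higher and 28.6% as lower. Over all genes tested, 64.1% went the same way, up or down, in all 4 libraries. The median log2 fold change was -0.56 over all genes and 4.78 over the members. Lct, Treh and Ace passed the filter on low values only through the absorptive sums (3, 0 and 2 of the 4 sums of other wells reached it), so for them some difference was built into the filter, and the other 5 members passed on the other wells alone. The fits are limma tests on log2(CPM + 1) with library as a block, and adjusted p-values are over all genes tested. In such sums fewer cells of a type and less RNA per cell cannot be told apart.

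Among the disaccharidases, Sis (sucrase-isomaltase, which splits sucrose and the branch points of starch fragments) had 4592, 5747, 5903 and 3298 CPM in absorptive wells of sorted libraries 1, 2, 4 and 5, against 507, 389, 363 and 834 CPM in the other wells. The ranges did not overlap, and library 5 had the lowest absorptive and the highest other value. The log2 fold change was 3.47 (SE 0.34, adjusted p = 4.2e-04, limma). Lct (lactase, which splits milk sugar) had 2400, 2696, 1745 and 1659 CPM in absorptive wells, against 31.4, 48.9, 9.60 and 165 CPM in other wells. The ranges did not overlap, and other wells spread more widely than absorptive wells, with library 5 again on top. The log2 fold change of Lct was 5.87 (SE 0.58, adjusted p = 4.2e-04, limma). Treh (trehalase, which splits the fungal and insect sugar trehalose) had 88.8, 155, 46.5 and 192 CPM in absorptive wells, against 3.14, 0.983, 1.80 and 8.01 CPM in other wells. It was the scarcest member in both kinds of well. Its log2 fold change was 4.98 (SE 0.61, adjusted p = 0.00105, limma).

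Of the peptidases, Anpep (aminopeptidase N, which trims peptides from their amino end) had 2164, 4337, 2851 and 3929 CPM in absorptive wells, against 51.4, 114, 52.8 and 471 CPM in other wells. The log2 fold change was 5.05 (SE 0.42, adjusted p = 2.8e-04, limma). Ace (angiotensin-converting enzyme, a peptidase of the apical membrane) had 1368, 1525, 777 and 1219 CPM in absorptive wells, against 15.7, 17.7, 4.80 and 57.5 CPM in other wells. It had the largest fitted change of the 8 genes, 6.24 (SE 0.40, adjusted p = 1.2e-04, limma). Alpi (intestinal alkaline phosphatase, which removes phosphate from lipids, nucleotides and bacterial endotoxin) had 1838, 2169, 1847 and 2053 CPM in absorptive wells, against 96.4, 95.1, 64.2 and 137 CPM in other wells. Its absorptive values were the most even of the enzymes, 1977 ± 162 CPM (SD, n = 4), and its log2 fold change was 4.57 (SE 0.17, adjusted p = 4.1e-05, limma).

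Slc5a1 (the sodium-glucose cotransporter of the brush border) had 3673, 4035, 4290 and 3478 CPM in absorptive wells, against 239, 218, 200 and 509 CPM in other wells. The 4 absorptive values lay close together, and in other wells library 5 stood above the rest. The log2 fold change was 4.04 (SE 0.27, adjusted p = 1.4e-04, limma). Khk (ketohexokinase, the cytosolic enzyme that phosphorylates fructose and sits in no brush border) had 489, 410, 582 and 696 CPM in absorptive wells, against 95.4, 85.2, 90.0 and 139 CPM in other wells. Its change was the smallest of the 8, 2.60 (SE 0.13, adjusted p = 5.2e-05, limma).

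**Figure D1:**
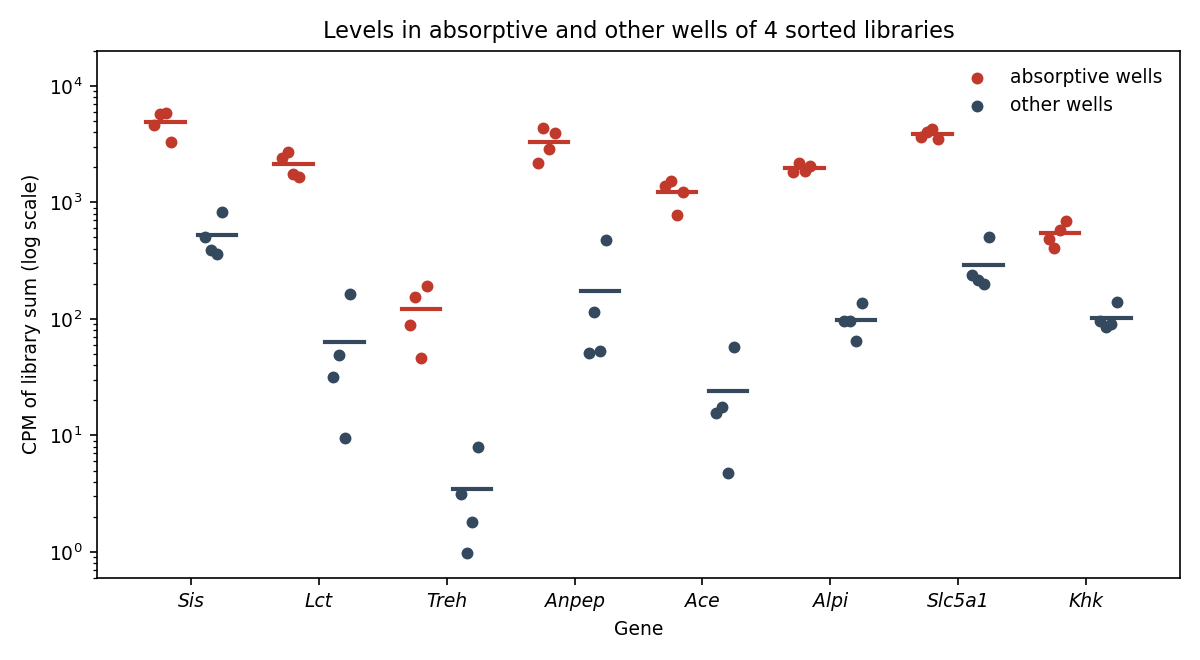
Level of each gene in CPM (log axis) in absorptive wells (red) and in other wells (dark) of the 4 sorted libraries, 1 point per library, with bars for the means. For every gene the 4 absorptive points lie above the 4 other points, and the other points of Lct, Anpep and Ace are spread widest.

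The high values of library 5 in other wells sat in few wells. Of its 200 other wells, 5 had an apolipoprotein share from 0.25% up to the cut-off of 0.5%, and these held 85.7% of its Lct, 84.5% of its Ace, 78.8% of its Anpep, 69.7% of its Sis and 62.8% of its Slc5a1 transcripts outside the class. Without them the other wells of library 5 had 25.7 CPM of Lct, 109 CPM of Anpep, 275 CPM of Sis and 206 CPM of Slc5a1. In library 2, 2 wells with such a share held 76.9% of the Lct and 50.0% of the Ace transcripts outside the class. In library 1, 1 such well held 43.3% and 33.3%, and library 4 had 0 such wells. Drawing the class at 0.25% moved the log2 fold change of Lct to 7.27, of Sis to 4.37 and of Ace to 7.08, each with an adjusted p under 0.05 in limma. Drawing it at 1% left library 1 with 9 such wells and so out of the fit, and gave 4.66 for Lct, 2.79 for Sis and 5.25 for Ace over the other 3 libraries. At the cut-off of 0.5% the same 3 libraries gave 5.72, 3.54 and 6.17.

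The order of the levels in absorptive wells was Sis (4885 ± 1209 CPM, SD, n = 4), Slc5a1 (3869 ± 363), Anpep (3320 ± 994), Lct (2125 ± 504), Alpi (1977 ± 162), Ace (1222 ± 322), Khk (544 ± 123) and Treh (121 ± 65.2). Neighbours from Sis down to Alpi overlapped in range, and from Alpi on each gene was above the next in 4 of 4 libraries without overlap. In other wells the order was Sis (523 ± 216 CPM), Slc5a1 (291 ± 146), Anpep (172 ± 201), Khk (102 ± 24.9), Alpi (98.3 ± 30.1), Lct (63.8 ± 69.4), Ace (23.9 ± 23.1) and Treh (3.48 ± 3.14), with every pair of neighbours overlapping. As a share of the 8 genes' sum, Sis made up 26.9% in absorptive and 42.8% in other wells, Khk 3.08% and 8.85%, Lct 11.7% and 4.10%, and Ace 6.79% and 1.61%. Together the 8 genes were 1.65% to 2.11% of the transcripts of absorptive wells on the GK5a plates and 0.0787% to 0.232% of those of other wells.

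Markers placed the class among enterocytes. Of 10 enterocyte markers outside the rule, 10 were higher in absorptive than in other wells, among them Fabp2, a fatty acid carrier (log2 fold change 5.66, adjusted p = 6.5e-05, limma), and Cyp3a11, a drug-metabolising enzyme (7.73). No tested marker of another type was higher: 9 of 9 tested Paneth markers, 8 of 9 goblet, 8 of 8 stem and 8 of 8 proliferation markers were lower. Few enteroendocrine and tuft markers could be tested, of which 2 of 4 and 1 of 2 were lower. Markers of immune, stromal or endothelial, and erythroid cells were too low to be tested. Absorptive wells were also shallower, with a median of 3608 transcripts against 5893 in other wells of the 4 libraries, and their median log2 ratio of transcripts to spike-in molecules was 2.52 to 4.03 in the 4 libraries, against 4.07 to 4.49 in other wells.

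The wider digestive machinery moved with the members. Of 17 other brush border and apical hydrolases and peptide handlers, 13 could be tested and 12 were higher in absorptive wells, with none lower. Among them were Slc15a1, the peptide transporter (6.62, SE 0.35, adjusted p = 6.5e-05, limma), Ggt1, which cleaves glutathione (6.08), and Mme, the endopeptidase neprilysin (5.13). Of 21 genes of sugar transport and metabolism, 16 could be tested, 12 were higher and none was lower, led by the cotransporter relative Slc5a4b (6.59), the inositol cotransporter Slc5a11 (5.23), the glucose carrier Slc2a2 (5.12) and Slc5a4a (4.96). Of 15 microvillus genes 14 were higher, led by the scaffold Pdzk1 (7.39), Tmigd1 (6.18), the actin bundler Espn (4.94) and the intermicrovillar cadherin Cdhr2 (3.75). Transcription factors of enterocytes were mixed: of 14 tested, 5 were higher, among them Maf (4.50), Creb3l3 (4.42), Klf4 (2.26) and Hnf4g (1.57), while Elf3 (-1.51) and Cdx1 (-1.36) were lower. The median log2 fold changes of these 4 lists were 4.59, 2.31, 3.2 and 0.05, against -0.56 over all genes.

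Within single wells the members were found together. In 74 of 80 sorted absorptive wells (92.5%) at least 5 of the 8 genes had a transcript, the median was 7, and 19 wells had all 8. Of the 19 picked absorptive wells, 18 had at least 5 and 9 had all 8. Among sorted wells outside the class, 133 of 1535 (8.66%) had at least 5 and 489 had none. Depth enters these counts, so wells were also compared at an equal 2000 transcripts. Only wells that deep could enter, which kept 10, 12, 11 and 10 absorptive wells of sorted libraries 1, 2, 4 and 5, of 16, 22, 19 and 14. Then a well had 5.88, 6.00, 5.91 and 6.29 members in absorptive wells of sorted libraries 1, 2, 4 and 5, against 0.75, 0.704, 0.830 and 0.889 members in other wells. The means were 6.02 ± 0.19 and 0.793 ± 0.083 members (SD, n = 4), a difference of 5.22, higher in 4 of 4 libraries, with an exact two-sided paired permutation p of 0.125, the smallest that 4 pairs allow. At an equal 1000 transcripts, which kept every absorptive well of these libraries, the means were 4.94 ± 0.35 and 0.493 ± 0.049 members.

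**Figure D2:**
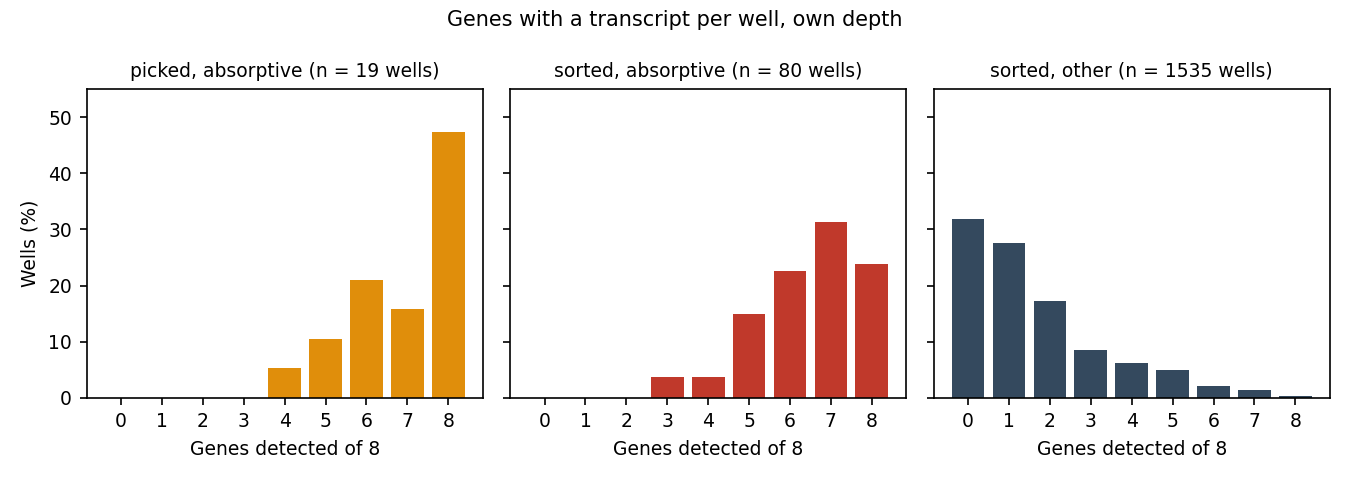
Share of wells (%) by the number of the 8 genes with a transcript, each well at its own depth, for picked absorptive wells, sorted absorptive wells and sorted other wells. Both absorptive panels pile up at 5 and more genes, and the other wells at 0 and 1.

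The genes missing from an absorptive well were mostly the scarce ones. Of the 80 sorted absorptive wells, 48 lacked Treh and 33 lacked Khk, while 14 lacked Ace, 12 Lct, 7 Sis, 6 Anpep, 2 Alpi and 2 Slc5a1. Per well, Sis ranged from 0 over a median of 3054 to 17410 CPM, Lct from 0 over 1353 to 6444 CPM, and Slc5a1 from 0 over 3489 to 6937 CPM. The sum of the 8 ranged from 0.207% over a median of 1.59% to 3.01% of a well's transcripts, so no absorptive well was without them. At an equal 1000 transcripts, pairs of members were found together in 0.92 to 1.11 times the share of wells given by multiplying their single shares, over 28 pairs, with Lct and Treh lowest and Sis and Treh highest. As a description over 80 wells of 6 libraries, the correlation of a member's log level with the summed others was 0.38 for Sis, 0.35 for Slc5a1, 0.32 for Lct and -0.14 for Alpi, and such wells share a plate and differ in depth.

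Outside the class, members tended to be found in the same wells, each well at its own depth. Of 58 other sorted wells with Lct, 43 also had Sis, 40 Anpep and 49 Slc5a1, and of 480 with Sis 43 had Lct. Among all 1535 such wells, 480 had Sis, 303 Anpep, 737 Slc5a1 and 58 Lct. The part that depth plays in these counts was not tested. Over the 1535 sorted wells outside the class the correlation of a member's log level with the summed others was 0.59 for Sis, 0.57 for Alpi, 0.54 for Anpep, 0.50 for Slc5a1 and for Khk, 0.34 for Lct, 0.31 for Ace and 0.19 for Treh. With the absorptive wells, over 1615 wells, it was 0.72 for Alpi, 0.70 for Anpep, 0.69 for Sis and 0.38 for Treh. These wells share plates and differ in depth, and the values are a description. By the same measure, log2 of 1 plus transcripts per 10000 over 1615 sorted wells, the 5 genes most like the sum of the members among 9499 compared were Ces2e, a carboxylesterase (r = 0.76), Cyp4f14, a fatty acid hydroxylase (0.73), Enpep, the brush border aminopeptidase A (0.72), Spink3, a protease inhibitor (0.71), and Mep1b, a subunit of the protease meprin (0.70). Within single libraries r ran from 0.67 to 0.81 for Ces2e and from 0.43 to 0.80 for Mep1b, and outside the absorptive class it was 0.66 for Ces2e and 0.52 for Mep1b.

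Along the apolipoprotein share the members did not all climb alike on the GK5a plates. In the 811 wells without Apoa1 or Apoa4, Slc5a1 stood at 142 CPM and Sis at 137 CPM, against 3.10 CPM for Lct and 4.80 CPM for Ace. In the 191 wells with a share above 0 and under 0.25%, Sis was at 854, Slc5a1 at 336, Lct at 60.2 and Ace at 22.2 CPM. The next bin, 0.25% to 0.5%, held 9 wells of 4 libraries, too few to lean on, and there Sis was at 6831, Slc5a1 at 3779, Lct at 1701 and Ace at 556 CPM. In the 22 wells from 0.5% to 1%, Sis was at 6458, Slc5a1 at 4270, Lct at 1362 and Ace at 601 CPM, and in the 57 wells of 1% and more, at 4543, 3905, 2646 and 1568 CPM. Sis and Slc5a1 were lower in the last bin than in the one from 0.5% to 1%, while Lct, Ace, Alpi (1663 and then 2192 CPM) and Treh (66.7 and then 162 CPM) were higher in it. These sums pool wells of up to 5 plates and carry no test.

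**Figure D3:**
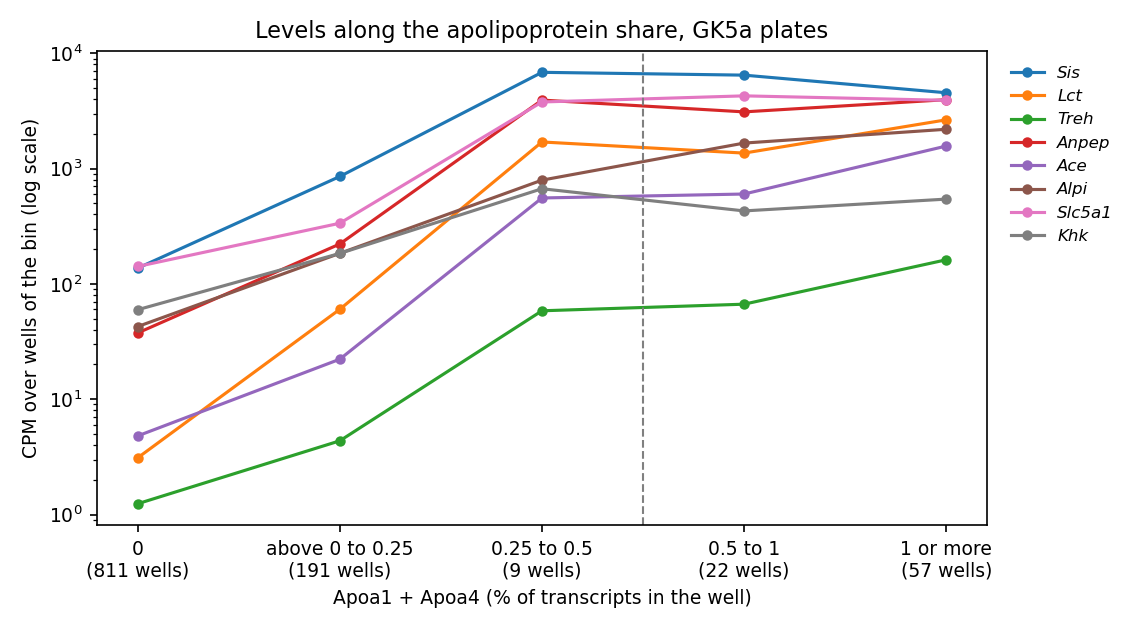
CPM of each gene (log axis) summed over GK5a wells in bins of the Apoa1 plus Apoa4 share of a well's transcripts (%), with the number of wells under each bin and the cut-off of the absorptive class as a dashed line. Sis is at 6831, 6458 and 4543 CPM and Slc5a1 at 3779, 4270 and 3905 CPM in the 3 bins from 0.25% on, and the bin from 0.25% to 0.5% rests on 9 wells.

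Other classes of sorted wells were cut from marker sums that leave the members out: 366 goblet wells (mucus secreting, at least 5% goblet markers), 42 Paneth wells (5%), 42 enteroendocrine wells (2%), 26 tuft wells (1%), 340 wells with a transcript of the stem cell gene Lgr5, and 708 remaining wells, with 11 wells in several classes left out. These cut-offs were not sharp for most classes. Within a factor of 2 of its cut-off lay 263 sorted wells for the 366 goblet wells and 34 for the 42 Paneth wells. There were 23 for the 26 tuft and 9 for the 42 enteroendocrine wells. At an equal 1000 transcripts, Sis was found in 80.1% of absorptive wells, 21.7% of remaining, 20.3% of enteroendocrine, 5.9% of Paneth, 5.8% of Lgr5, 2.2% of tuft and 1.9% of goblet wells. Slc5a1 was found in 90.1% of absorptive wells, 18.4% of enteroendocrine, 16.5% of remaining, 15.02% of Lgr5, 9.2% of Paneth, 2.5% of tuft and 2.5% of goblet wells. Median depths were 8002 transcripts in goblet and 5276 in tuft wells, against 4105 in absorptive wells. The classes drew on the plates unequally, with 238 of the 366 goblet wells and none of the 26 tuft wells from GK5b. On the GK5a plates alone Sis was found in 79.8% of absorptive wells, 23.5% of remaining, 18.4% of enteroendocrine, 6.19% of Paneth, 5.65% of Lgr5, 3.52% of goblet and 2.24% of tuft wells. How much of the low shares free RNA left in the wells was not tested.

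Lct, Ace and Treh were rare outside the absorptive class. Lct was found in 66.9% of absorptive and 1.96% of remaining wells, Ace in 56.0% and 1.22%, and Treh in 12.5% and 0.256%. Lct had no transcript in 42 Paneth, 42 enteroendocrine and 26 tuft wells, which allows a share of up to 7.14% in each of the first 2 and 11.5% in tuft wells. These limits are for wells with a transcript at such depths, and a level too low to be caught in a well is not bounded by them. Ace had no transcript in enteroendocrine and tuft wells either, and Treh none in Paneth, enteroendocrine and tuft wells. By library, among those with at least 5 wells of a class, Sis ran from 97.9 over a median of 227 to 307 CPM in enteroendocrine wells (5 libraries, median depth 3105 transcripts), from 8.86 over 13.2 to 188 CPM in goblet wells (7 libraries) and from 0 over 15.6 to 107 CPM in tuft wells (4 libraries). The enteroendocrine range overlapped both of the others. At each well's own depth 45.2% of enteroendocrine wells had Sis, 35.7% Slc5a1 and 19.0% Anpep, against 2.4% with Alpi. Slc5a1 had a transcript in 67.1% of Lgr5 wells at their own depth, a median of 8735 transcripts.

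**Figure D4:**
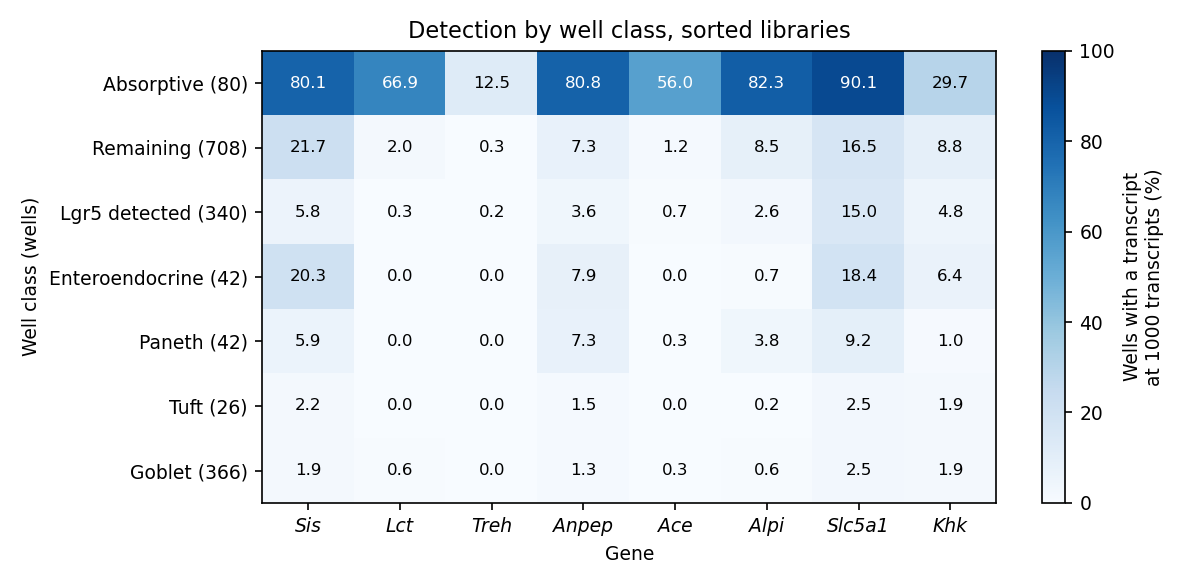
Share of sorted wells (%) with a transcript of each gene at an equal 1000 transcripts, by class of well, with the number of wells in brackets. The absorptive row stands out for all 8 genes. Sis has a second level in remaining and enteroendocrine wells, and Slc5a1 has one in these and in Lgr5 wells.

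A set of wells outside the class also held most members. With 5 or more of the 8 genes there were 25 picked wells (10, 2 and 13 in libraries 1 to 3), 46 GK5b wells (23 and 23 in libraries 6 and 7) and 87 GK5a wells (7, 19, 24, 16 and 21 in libraries 1 to 5). Of these, 7 picked, 19 GK5b and 28 GK5a wells had no Apoa1 or Apoa4 at all. They were deeper than most wells, with medians of 9245, 31393 and 14174 transcripts, and the part that depth plays in their count was not tested. Their levels were below those of absorptive wells: in GK5a, Sis stood at 2047 CPM in these wells and 5200 CPM in absorptive wells, Khk at 330 and 504 CPM, Slc5a1 at 906 and 4030 CPM, Lct at 300.2 and 2205 CPM, and Ace at 102 and 1236 CPM. Lct was found in 5 of the 25 picked wells, 3 of the 46 GK5b wells and 33 of the 87 GK5a wells. Mki67, a gene of dividing cells, was at 636 CPM in the GK5b wells of this kind, 161 CPM in the GK5a ones and 4.90 CPM in GK5a absorptive wells. Over all used wells its mean, TMM scaled, was 471 CPM in GK5b and 255 CPM in GK5a libraries. The members themselves chose these wells, so the values are a description.

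Between picked and sorted libraries over all wells, no member passed the test (limma, adjusted p under 0.05). Of the 10427 genes tested 30.2% passed, 14.2% as higher and 16.0% as lower. An unadjusted limma p under 0.05 was found for 1 of the 8 members and for 4419 of all genes. Alpi had 29.2, 39.0 and 101 CPM in the picked libraries, against 132 to 324 CPM in GK5a and 64.5 and 59.8 CPM in GK5b libraries. Its picked values overlapped the sorted range through library 3 alone (log2 fold change -1.26, SE 0.50, adjusted p = 0.073, limma). Sis had 207, 73.1 and 411 CPM in picked libraries, against 217 to 980 CPM over the 7 sorted ones with a median of 761 CPM (-1.21, SE 0.56, adjusted p = 0.12, limma). The direction of Anpep was the other way, with 280, 208 and 453 CPM in picked libraries and 49.6 to 632 CPM in sorted ones with a median of 219 CPM (0.90, SE 0.68, adjusted p = 0.33, limma). The other 5 members had log2 fold changes of -0.80 (Lct), -0.58 (Slc5a1), -0.28 (Ace), -0.05 (Treh) and 0.20 (Khk), with adjusted p-values from 0.43 to 0.97 in limma. Picked values spread widely, with Lct at 17.9, 6.09 and 79.2 CPM and Treh at 2.43, 1.22 and 25.8 CPM, highest in library 3, which had 13 of the 19 picked absorptive wells.

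The sorted libraries were not alike, and the result depended on which of them were compared. Against GK5b alone Lct (3.73), Anpep (2.69) and Slc5a1 (0.93) were called higher in picked libraries, where 15.2% of all genes were called (9.11% higher). Against GK5a alone Lct (-2.58), Alpi (-1.69), Sis (-1.66) and Slc5a1 (-1.14) were called lower, where 32.8% of all genes were called (15.9% lower). Scaled by library totals in place of TMM, which moved the median over all genes to -0.40, against -0.09, and the calls to 837 higher and 3472 lower, Alpi (-1.58, adjusted p = 0.025, limma) and Sis (-1.54, adjusted p = 0.043) were called lower, where 41.3% of all genes were called (33.3% lower). Outside the absorptive class, a choice made after the data were seen, Alpi (-1.13, adjusted p = 0.0094, limma) and Sis (-1.57, adjusted p = 0.015) were lower in picked libraries, where 31.3% of all genes were called and 16.4% were lower, so 2 of 8 members is near the share over all genes. Enterocyte markers summed to 0.140% to 0.427% of transcripts in picked and 0.119% to 0.664% in sorted libraries, and Paneth markers to 0.744% to 6.99% and 0.305% to 0.951%, with 8 of 11 Paneth markers higher in picked libraries. Their part in the result was not tested. Of the other hydrolases, 3 of 13 tested were lower in picked libraries, Enpp3 (-2.06), Dpp4 (-1.56) and Xpnpep2 (-1.20), and none was higher. Of 19 sugar genes Mlxipl, a sugar-sensing transcription factor, was higher (1.16) and Pck1, an enzyme of glucose synthesis, was lower (-1.65). Of 15 microvillus genes Pls1 (-1.13) and Eps8 (-0.78) were lower, and of 15 transcription factors Elf3 was higher (0.35) and Hnf4g (-1.12), Gata6 (-0.85), Gata5 (-0.56) and Klf5 (-0.51) were lower.

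Within absorptive wells the comparison rests on 1 picked library, number 3, against 4 sorted ones, and limma takes its spread to be that of the sorted libraries. The picked group has no spread of its own here, so the p-values set this 1 library against the sorted ones and do not bear on picked libraries in general. None of the 8 members passed adjusted p under 0.05, against 10.1% of 3002 genes tested (2.53% higher, 7.53% lower). The 3 largest fitted changes of the 8 were those of Treh, Anpep and Alpi. Treh had 400.0 CPM in the picked library and 46.5 to 192 CPM in sorted ones (log2 fold change 2.01, SE 0.67). Anpep had 5859 CPM and 2164 to 4337 CPM (0.96, SE 0.36), and Alpi had 1084 CPM and 1838 to 2169 CPM (-0.77, SE 0.28). In picked library 3 all 3 values lay outside the sorted range, as did those of Lct, Ace, Slc5a1 and Khk. Of all genes tested, 66.1% lay outside the sorted range there, in either direction. In picked library 2, with 5 absorptive wells, Treh was at 102 CPM, inside it, Anpep at 6329 CPM and Alpi at 1733 CPM, and the 1 absorptive well of picked library 1 had 0, 3976 and 40.9 CPM of these genes. Whether a member was called turned on single sorted libraries, and changed on leaving out library 1 or library 5. At an equal 2000 transcripts an absorptive well had 6.85 members in picked library 3 and 6.02 ± 0.19 (SD, n = 4) in sorted libraries, with an exact two-sided permutation p of 0.4, the smallest that 1 against 4 allows.

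Between the codes of the sorted group, all 8 members were lower on the GK5b plates than on the GK5a plates, with no overlap of the 2 and 5 libraries for any of them. Beside this, 13.0% of 10641 genes tested were called, 6.35% as higher and 6.66% as lower, and the median log2 fold change was 0.00 over all genes. Of all genes tested, 32.5% had no overlap of the 2 and 5 libraries, in either direction. Lct and Treh passed the filter on low values only through the GK5a libraries. Lct had 0.207 and 2.04 CPM in the GK5b libraries, which is 1 transcript and 9 transcripts, against 188, 341, 70.4, 134 and 234 CPM in the GK5a libraries. The log2 fold change of -6.46 (SE 0.49, adjusted p = 3.7e-05, limma) depends on the pseudocount, since library 6 stands below the floor of 3 transcripts. Ace had 5.59 and 8.84 CPM in GK5b, against 105, 184, 34.2, 60.2 and 111 CPM in GK5a libraries (-3.38, SE 0.47, adjusted p = 7.2e-04, limma). Anpep had 49.6 and 65.0 CPM in GK5b, against 191, 579, 219, 254 and 632 CPM in GK5a libraries (-2.47, SE 0.41, adjusted p = 0.0022, limma). The lowest GK5a value was above both GK5b values for all 3 enzymes, in library 3 for Lct and Ace and in library 1 for Anpep.

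Slc5a1 had 90.0 and 141 CPM in GK5b, against 466.2, 638, 331, 494 and 647 CPM in GK5a libraries (-2.09, SE 0.24, adjusted p = 2.1e-04, limma). Sis had 217 and 224 CPM in GK5b, against 777, 980, 480, 761 and 948 CPM in GK5a libraries (-1.74, SE 0.23, adjusted p = 4.6e-04, limma). Alpi had 64.5 and 59.8 CPM in GK5b, against 212, 324, 132, 192 and 226 CPM in GK5a libraries (-1.68, SE 0.26, adjusted p = 0.0012, limma). Library 3, with the fewest absorptive wells of the GK5a plates, was the lowest GK5a library for all 3 genes. Treh had 2.28 and 1.36 CPM in GK5b, against 5.01 to 17.9 CPM in GK5a libraries (-1.90, SE 0.47, adjusted p = 0.019, limma). Khk differed least, with 58.8 and 83.0 CPM in GK5b, against 121 to 165 CPM in GK5a libraries (-0.84, SE 0.17, adjusted p = 0.0064, limma).

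**Figure D5:**
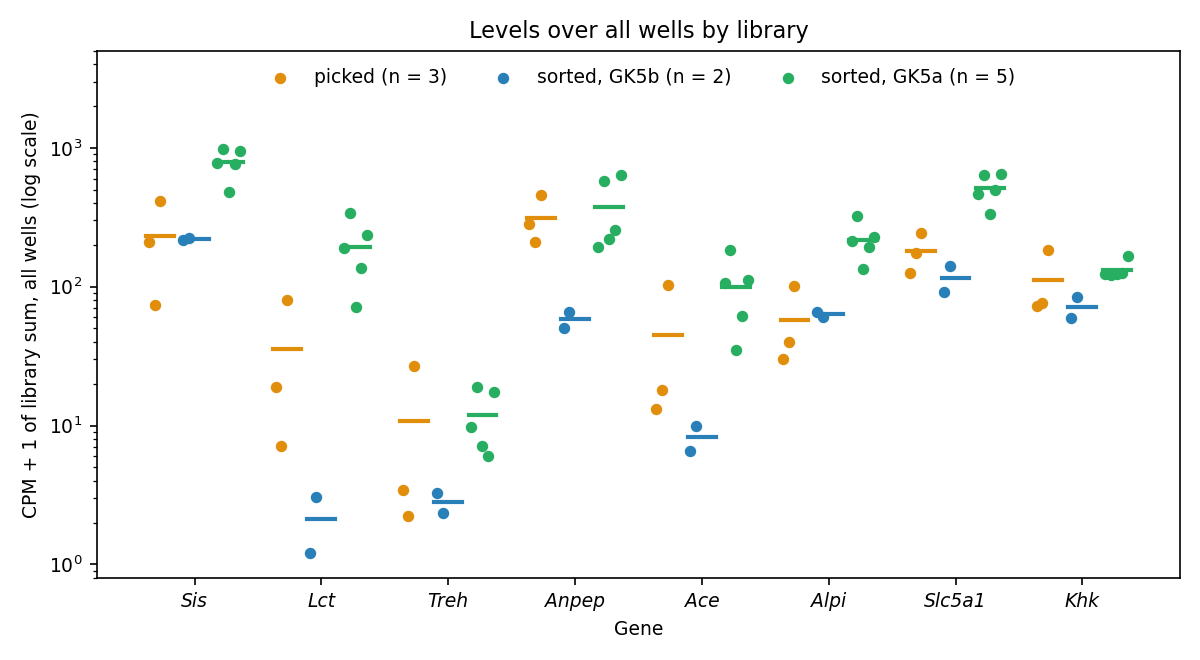
CPM plus 1 (log axis) over all used wells of each library for picked (n = 3), sorted GK5b (n = 2) and sorted GK5a (n = 5) libraries, 1 point per library, with bars for the means. GK5b points lie below all GK5a points for every gene, and picked points reach between them and beyond.

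The GK5b plates held 1 absorptive well, so wells outside the class were compared as well, a choice made after the data were seen. There Lct (-4.36, SE 0.75, adjusted p = 0.0046, limma), Slc5a1 (-1.14, SE 0.30, adjusted p = 0.033) and Sis (-1.01, SE 0.27, adjusted p = 0.035) were lower on the GK5b plates, where 10.3% of 10481 genes were called and 4.39% were lower. Khk (-0.49, adjusted p = 0.14), Alpi (-0.53, adjusted p = 0.16), Ace (-1.31, adjusted p = 0.20) and Anpep (-0.95, adjusted p = 0.38) did not pass, and Treh fell below the filter. Lct in those wells stood at 0.207 and 1.59 CPM in GK5b and at 31.4, 48.9, 23.6, 9.60 and 165 CPM in GK5a libraries. Of them, 9 GK5a and 0 GK5b wells had an apolipoprotein share from 0.25% to 0.5%. At a share above 0 and under 0.25%, GK5b and GK5a wells had 912 and 854 CPM of Sis, 324 and 336 of Slc5a1, and 5.01 and 60.2 of Lct. Without Apoa1 or Apoa4 they had 73.3 and 137 CPM of Sis, 68.3 and 142 of Slc5a1, and 0 and 3.10 of Lct. The part of this share was not tested. Without sorted library 6, with 1 GK5b library left and assumed to vary like the GK5a ones, 216 genes (1.96%) were called in all, and of the members Lct (adjusted p = 0.012, limma) and Slc5a1 (0.044) passed while Sis had an adjusted p of 0.056, Alpi 0.073 and Ace 0.095. Without sorted library 7, where 9.42% of genes were called, Treh did not pass (adjusted p = 0.15, limma). Goblet markers summed to 3.86% to 6.18% of transcripts in GK5b and 1.06% to 1.82% in GK5a libraries, and enterocyte markers to 0.119% to 0.130% and 0.316% to 0.664%. With goblet, Paneth, enteroendocrine and tuft wells left out, a choice made after the data were seen, all 8 members were lower on the GK5b plates, with a log2 fold change of -1.39 for Sis and -6.45 for Lct, where 9.87% of all genes were called and 6.22% were lower. The part of the enterocyte markers was not tested.

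The companion lists moved the same way. On the GK5b plates 12 of 13 other hydrolases were lower and none was higher, among them Slc15a1 (-5.17, SE 0.43), the dipeptidase Dpep1 (-3.51) and Mep1b (-3.30), each with an adjusted p under 0.05 in limma. Of 19 sugar genes 7 were lower, led by Slc5a4b (-4.40), Slc5a11 (-3.06), Slc5a4a (-2.76) and Slc2a2 (-1.79), and 1 was higher. Of 15 microvillus genes 10 were lower, led by Pdzk1 (-3.44), Tmigd1 (-3.21), Espn (-1.69) and Pls1 (-1.13). Creb3l3 (-2.96), Maf (-2.22) and Hnf4g (-1.02) were lower and Klf4 (1.24) and Cdx2 (0.59) higher among 15 transcription factors. Genes known for their place along the intestine were split. Of 4 tested proximal genes Fabp1 was lower (-2.95) and Onecut2 higher (0.67), and of 4 tested distal genes Fabp6 (-3.94) and Osr2 (-0.77) were lower and Guca2a higher (1.64).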

How the data were processed

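CEL-seq2 libraries of 384-well plates with spike-in RNA were sequenced on a NextSeq500, per the labels' protocols. The aligner was BWA 0.6.2-r126 and the genome build mm10, per the submitters' processing notes. No source used here gives the counting tool or its strand setting. The deposited values, another kind of quantity than raw counts, are molecule estimates per gene and well, not normalized: solved for the number of molecule barcodes, they are whole within 0.001. The planned count test depended on whole counts whose unit could be checked. As the deposited values are estimates, limma 3.58.1 in R 4.3.3 (lmFit and eBayes with trend) was used throughout, on log2(CPM + 1) of sums over wells per library, TMM scaled, with Benjamini-Hochberg adjustment over all genes tested and a threshold of 0.05. Fold changes on this scale understate the change of low genes. Printed CPM are of library totals, save where TMM scaling is named beside the value.

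Wells had at least 1000 transcripts, and genes needed the CPM of 10 transcripts at the median library size in as many sums as the smaller group had, and 15 transcripts in all. Libraries are the replicates. The block pairs absorptive and other wells of the same plate. Wells were thinned to 2000 or 1000 transcripts by the expected share of draws with the gene. Well numbers shared by plates are positions only. Exact permutation tests used Python 3.11.15. Gene positions are from GENCODE for GRCm38 and promoters from RefSeq. Floors and limits for a count of 0 use 3 counts and cover counting error only. The fitting was tested on simulated data.

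The 8 members, the companion lists, markers and tests were chosen with earlier results of these data known. Named companion genes are those called in a comparison, up to 4 in each direction by size of change, plus the 5 genes most like the sum of the members; a few that this rule names are not reported here. Alternatives were another scaling, filter, pseudocount, minimum well sum, class cut-off, weighting, whole barcode counts and leaving out each library.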

Additional observations from a re-analysis of the deposited data

Results flagged for a closer look

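Sorted library 5 lay far from the other libraries in 3 of the 34 sets of 4, 5 or 7 libraries that were looked at for a gap, where chance gives about 1 in 20. Its other wells had 471 CPM of Anpep, where the next highest of the 4 libraries had 114 CPM. They had 509 CPM of Slc5a1, where the next highest had 239 CPM. Over all wells it had 165 CPM of Khk, where the next highest GK5a library had 125 CPM.

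Transcripts of the 8 genes were also found in wells left out for holding under 1000 transcripts. They made up 0.126% of the transcripts in 651 such picked wells and 0.217% of those in 1073 such sorted wells, where a count of 0 would allow up to 0.0036% and 0.00127%. By library the share was 0.0237% to 0.26% on picked plates, 0.0473% and 0.0483% on GK5b plates and 0.146% to 0.53% on GK5a plates.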

How the results depend on the processing

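For absorptive against other wells, all 136 values of the members under the alternatives run had the same direction and passed the threshold. Leaving out the library block that pairs the wells of a plate gave 3513 called genes, against 3512. No paired analysis was possible because picked and sorted, or GK5b and GK5a, libraries share no plate or animal in the labels. With no filter on low genes 5270 genes were called there and 854 in picked against sorted absorptive wells (302 with the filter). That comparison gave 99 with at least 5 absorptive wells per library, a choice added after the data were seen, and 47 to 556 leaving out 1 library. Picked against GK5b libraries alone gave 1449 called genes (3152 against all). GK5b against GK5a gave 216 to 1625 leaving out 1 library, and 13 of 119 member values no longer passed. Between picked and sorted libraries, 17 of 158 member values turned in direction and 14 came to pass. Against GK5b alone these were Sis 0.056, Lct 3.73, Ace 2.13 and Slc5a1 0.93; Ace outside the absorptive class was 0.012, Treh at a minimum of 2000 transcripts 0.0091 and Khk by library totals -0.12. Leaving out 1 library gave -1.69 to 0.063 for Lct, -1.13 to 0.69 for Treh, -1.16 to 0.20 for Ace and -0.20 to 0.44 for Khk. Alpi passed without sorted library 6 (-1.42), sorted library 7 (-1.47) or picked library 3 (-1.74). Within absorptive wells Sis was 0.10 at a cut-off of 1% and -0.21 to 0.016 leaving out 1 library, and Ace was -0.050 with at least 5 wells. Pdzk1 between GK5b and GK5a was 0.20 outside the absorptive class. In GK5b against GK5a, Treh did not pass without the filter (adjusted p = 0.077) nor Khk with wells weighted equally (adjusted p = 0.064). Causes were not tested. Leaving out picked library 3 from the absorptive comparison and thinned wells at a cut-off of 1% were not run, as too few wells are left. Depth limits the scarce genes most where libraries are small: 3 transcripts are 2.93 CPM in sorted library 1 and 0.621 CPM in sorted library 6.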

Other observations

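The ratio of Anpep to Sis was looked at after the values were seen, so it is given without a test. Over all wells it was 1.35, 2.85 and 1.10 in the 3 picked libraries and 0.228 to 0.666 in the 7 sorted ones, with no overlap. In absorptive wells it was 0.759, 2.59 and 1.36 in picked libraries 1, 2 and 3, the first from 1 well, and 0.471 to 1.19 in the 6 sorted libraries with such wells, and these ranges overlapped.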
